A study of Mus musculus with 9 samples.

Results

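The regions described here are the first exons of multi-exon genes, as listed in an exon table of RNA immunoprecipitation sequencing (RIP-seq) from mouse liver. For each gene name with 3 or more distinct exon rows, the row nearest the 5′ end was taken, which gave 14819 first exons. Those above 0 in at least 3 of the 6 RIP libraries were kept, which left 2373 of 14819 (16.0%), or 1.12% of the 210966 distinct exons of the table. The first exons were thus chosen by the RIP values themselves, as detection in either pull-down. First exons above 0 in exactly 3 libraries, just inside the threshold, numbered 1077 and had a median of 0.141 RPKM (reads per kilobase of exon, scaled to library size). Those above 0 in exactly 2, just outside it, numbered 2046 and had a median of 0.0713 RPKM.

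HuR RIP, IgG RIP and Input were each made 3 times from whole healthy liver of wild-type C57BL/6 mice aged 8 weeks. HuR RIP is a pull-down with an antibody against the RNA-binding protein HuR, IgG RIP is the control pull-down, and Input is RNA of the lysate. All groups share the strain, tissue and age, and no treatment or allele other than wild type is given. Each native pull-down used the lysate of a single liver, so the spread between libraries covers separate livers, and the table gives Input only as a mean with no spread.

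HuR, the product of Elavl1, is known to bind U-rich and AU-rich stretches of RNA, many of them in 3′ untranslated regions, and to affect the stability and translation of the bound mRNA. A first exon carries the capped 5′ end, all or part of the 5′ untranslated region and often the start codon, and in many genes it lies in GC-rich promoter sequence. In hepatocytes the most abundant mRNAs encode secreted plasma proteins and metabolic enzymes, and in such genes the first coding bases often specify a signal peptide.

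The sequences below compare first and terminal exons of the same gene by a single window of each, written with T for U. Each is the 30-base window richest in T on the transcribed strand, with runs of 3 or more T in capitals. Sequences are from GENCODE M21 transcripts on GRCm38 (mm10). Albumin (Alb), the vitamin D-binding protein (Gc), the liver fatty acid-binding protein (Fabp1), fibrinogen beta (Fgb) and the sterol-sensing regulator Insig1 are shown because their balance between both ends differed most or is described later. Complement component C3 is shown because its first exon was higher in each HuR library than in each IgG library.

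Alb first exon, chr5:90460957-90460986, plus strand: tcctcctcttcgtctccggctctgcTTTTT
Alb terminal exon, chr5:90476540-90476569, plus strand: aTTTcTTTaaacaTTTgacttcttgtctct
Gc first exon, chr5:89457869-89457898, minus strand: TTTgccttatgatgatattactatctaTTT
Gc terminal exon, chr5:89417574-89417603, minus strand: taattccaTTTTTcttagctacaatgTTTT
Fabp1 first exon, chr6:71199887-71199916, plus strand: ctgttgtggtcagctgtggaaaggaagcct
Fabp1 terminal exon, chr6:71204962-71204991, plus strand: tataTTTcatattcTTTTacagtgtaaaat
Fgb first exon, chr3:83049724-83049753, minus strand: tctatggctgctgctgctattgtgtgTTTT
Fgb terminal exon, chr3:83042184-83042213, minus strand: aaTTTTTaTTTTTattacTTTTaattatgt
Insig1 first exon, chr5:28071647-28071676, plus strand: cctagtgctcttctcaTTTggcgtggtcct
Insig1 terminal exon, chr5:28078145-28078174, plus strand: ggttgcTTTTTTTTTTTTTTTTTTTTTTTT
C3 first exon, chr17:57228034-57228063, minus strand: ttcattccttccaccTTTTTccttcactat
C3 terminal exon, chr17:57204022-57204051, minus strand: ttcacagaatctatggtggTTTatggttgt

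In these windows the Fabp1 first exon held 8 T and its terminal exon 15. The Fgb first exon held 15 and its terminal exon 20, and Insig1 held 12 and 26. A longer exon offers more windows, and the first and terminal exons had 183 and 2494 bases in Fgb and 433 and 1872 in Insig1. In Fabp1 they had 167 and 120 bases. Gc held 16 in both, and its first exon began with this window. The C3 first exon held more T than its terminal exon, with 15 and 13. Among 10 genes whose windows were read, the first exon also held more in Ugt2b5 (17 and 16) and Gltpd2 (15 and 12).

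The first exons above 0 in the RIP libraries were longer than the rest, with a median of 429 bases against 240 for the other first exons. They ranged from 15 to 20771 bases. Of the 2373, 2194 belonged to protein-coding genes and 130 to long non-coding RNA classes, and 2088 (88.0%) were exon 1 of an annotated transcript. Among 1766 in a protein-coding transcript, 410 held no coding base and were untranslated throughout. In all, 451 overlapped an exon of another gene, and reads there cannot be assigned to a single gene. Another row of the same gene was overlapped by 1625 of the 2373, so many are not a separate 5′ end. The terminal row of the gene was overlapped by 112, and 80 of these were that row itself. These 112 count as first exons here but do not enter the first minus terminal comparison.

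Coverage of first exons was thin. Library size was 26.6, 26.3 and 26.9 M reads for HuR 1 to HuR 3, and 15.9, 26.7 and 28.8 M reads for IgG 1 to IgG 3, where M stands for 10 to the power of 6. The kept first exons had a median of 1 read in each HuR library and in IgG 2, 1.5 in IgG 1 and 0.330 in IgG 3, where fractions come from reads split between overlapping rows. Of the 2373, 1500 had 10 or more reads summed over the 6 libraries and 419 had 100 or more. IgG 3 stood apart, with 25451 exons above 0 against 46814 to 62224 in the other libraries, and 1304 of the kept first exons above 0 against 1511 to 1780. Column names of both pull-downs end in M for libraries 1 and 2 and in F for library 3, letters that the labels do not explain. What they stand for and the library itself cannot be told apart within a group, as each has 1 library marked F, which also bears on the Mup and cytochrome P450 genes below. First exons held 0.646% to 3.85% of the listed reads in HuR RIP and 1.6% to 5.0% in IgG RIP, so the ranges overlapped. In HuR RIP these shares leaned on Malat1 and Ccdc107, whose rows overlap other genes. First exons held 214792, 283166 and 105198 reads in HuR RIP, with 57038, 84517 and 24280 in Malat1 and 41053, 49888 and 25171 in Ccdc107. In IgG RIP they held 471169, 188830 and 330653 reads, with 9441, 3064 and 5502 in Malat1 and 49054, 17139 and 11116 in Ccdc107. Within a gene, the median share of its reads that lay in the first exon was 1.38%, 2.57% and 1.43% in the HuR libraries. It was higher in the controls, at 5.4%, 5.27% and 10.6% for IgG RIP, and was 5.58% for the Input mean.

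The labelled tissue was checked on marker genes. Each of 10 hepatocyte markers was above 0 in every library in at least 1 exon, and 7 of their 10 first exons were among the 2373. Of the first exons of markers for Kupffer cells (10), endothelial cells (9), stellate cells and fibroblasts (9) and cholangiocytes (8), 0 were among them. In any exon, however, 7 to 10 of 10 Kupffer cell markers were above 0 per library, 8 to 10 of 10 endothelial, 7 to 10 of 10 stellate and fibroblast and 3 to 6 of 9 cholangiocyte markers, so RNA of these markers was present. Blood cell markers gave 4 of 9, namely Hba-a1, Hba-a2, Hbb-bs and Hbb-bt. Elavl1 itself had a first exon above 0 in 1 library, HuR 3, at 0.0352 RPKM, and was not among them.

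The first comparison asked whether first exons were recovered more with the HuR antibody than with IgG. In the limma fit over 40378 exons, 0 first exons passed an adjusted p of 0.05 in either direction, and 0 of all exons did (percent called 0). At an unadjusted p under 0.05, 87 first exons were higher and 57 lower in HuR RIP, against 8.28% higher and 1.78% lower over all exons tested. The median log2 fold change on the RPKM + 0.5 scale was 0.05 for first exons, 0.28 for internal, 0.72 for terminal and 0.32 for all exons. The sign of the first-exon median depended on the scaling, because centring each library at the median exon gave -0.29, and 0 exons of any class were called under centring, TMM-like scaling or quantile normalization.

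Counts of exons whose HuR and IgG libraries did not overlap followed the same order. Of the first exons, 241 (10.2%) were higher in all 3 HuR libraries than in all 3 IgG libraries, where the share over all exons tested was 19.9%. A further 146 (6.15%) were lower in all 3, where the share over all exons was 3.53%. Among terminal exons 35.0% were higher and 0.438% lower, and among internal exons 16.5% and 3.87%. These shares are descriptions, since an exon above 0 only in the group where it is high had to differ. This held for 96 of the 241 first exons and for 63 of the 146. Length did not order the median fold changes of first exons, which were 0.12 under 200 bases, 0.02 from 200 to under 500, 0.03 from 500 to under 1000 and 0.08 at 1000 or more. The counts differed for the longest class, where 15.9% were higher without overlap and 2.69% lower. In the shorter classes 8.21% to 9.70% were higher and 6.34% to 7.82% lower.

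**Figure D1:**
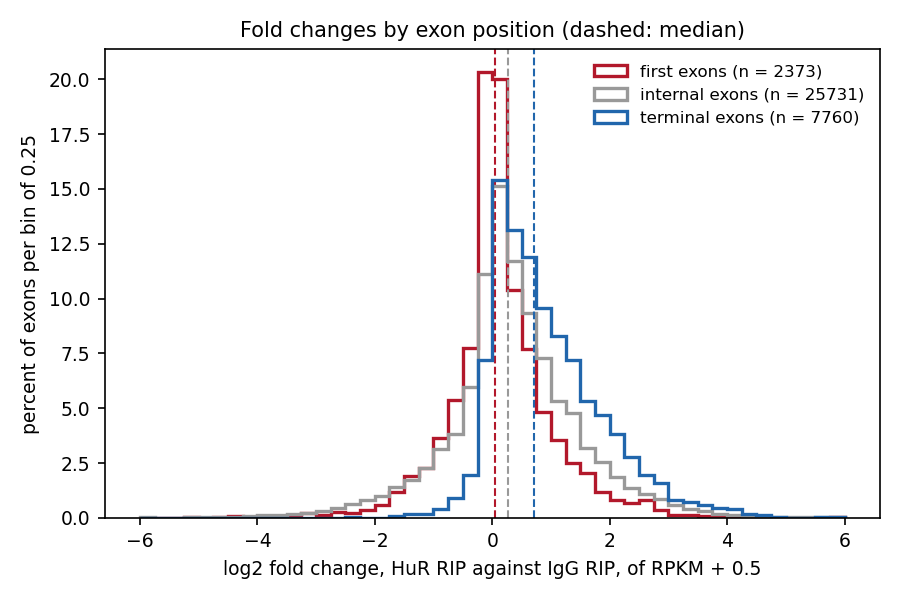
Distribution of log2 fold changes (HuR RIP against IgG RIP, RPKM + 0.5) for 2373 first, 25731 internal and 7760 terminal exons, as percent of exons per bin; values beyond 6 are drawn in the last bin and dashed lines are medians. First exons centre at 0.05, internal exons at 0.28 and terminal exons at 0.72.

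The single first exons with the largest differences are described next, none of which passed the adjusted threshold (limma, adjusted p = 0.479 for each of the 10 largest on either side). Srsf3, which encodes a splicing factor, had a first exon at chr17:29032673-29032786 with 20.1, 27.7 and 6.85 RPKM in HuR 1 to HuR 3, while the IgG libraries had 0, 2.30 and 0. The groups did not overlap, and the log2 fold change was 4.19 (SE 1.17).

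Echs1 encodes a mitochondrial enoyl-CoA hydratase of fatty acid oxidation. Its first exon, at chr7:140116307-140116476, had 26.3, 8.33 and 1.35 RPKM in HuR RIP and 0.122, 0 and 0 in IgG RIP, with HuR 1 far above HuR 3. Wipf2, a regulator of actin assembly, had 3.33, 21.6 and 3.65 RPKM in HuR RIP and 0, 0.142 and 0 in IgG RIP. Its first exon at chr11:98863638-98863902 was untranslated, and HuR 2 was its highest library.
Phf21a, a chromatin reader, also had an untranslated first exon, at chr2:92184106-92184352, with 4.11, 7.71 and 3.41 RPKM in HuR RIP and 0.255, 0.173 and 0 in IgG RIP. Its HuR mean was 5.08 ± 2.31 RPKM (SD, n = 3). The log2 fold changes were 3.82 for Echs1, 3.70 for Wipf2 and 3.06 for Phf21a.

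BC031181, Ctdsp1 and Wdr33 were also among the 10 highest, with log2 fold changes of 3.81, 2.88 and 2.85. Ctdsp1 had 8.32 and 8.33 RPKM in HuR 1 and 2 but 0.448 in HuR 3. Slc39a8, a metal ion transporter, had 15.1, 8.61 and 0.885 RPKM in HuR RIP and was listed at 0 in the IgG libraries and the Input mean. Ebag9 had 9.63, 4.48 and 2.67 RPKM in HuR RIP and was likewise listed at 0 in IgG RIP and Input. Slc39a8 and Ebag9 were thus kept through HuR RIP alone and had to differ. In all, 20 first exons met these conditions (no overlap of groups, a mean of 5 RPKM or more in the higher group, 100 bases or more, no overlap with another gene). Predicted, Rik, pseudogene, ribosomal repeat and small RNA gene names were left out beforehand. IgG 3 was at 0 in 13 of the 20, and HuR 3 was the lowest HuR library in 11. In 18 of the 20, all 3 HuR libraries lay above the Input mean.

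On the lower side, 16 first exons met the same conditions, and genes of plasma proteins and drug metabolism were among them. Hemopexin (Hpx), the heme-binding plasma protein, had a first exon at chr7:105600008-105600137 with 0.867, 0 and 2.0 RPKM in HuR RIP and 27.9, 5.19 and 29.8 in IgG RIP. The Input mean of 16.8 RPKM lay among the IgG values, and the log2 fold change was -3.83 (SE 1.18).
Fgb, at chr3:83049681-83049863, had 6.78, 0.623 and 0 RPKM in HuR RIP and 11.7, 8.61 and 72.2 in IgG RIP, with a log2 fold change of -3.65 (SE 1.35). Cyp2c37, a cytochrome P450, had 0, 0.413 and 0 RPKM in HuR RIP and 0.686, 4.28 and 26.2 in IgG RIP. IgG 3 was the highest library for both.

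Pitpnc1, a phosphatidylinositol transfer protein, had 0.0464, 0 and 0.0459 RPKM in HuR RIP and 4.29, 2.60 and 12.3 in IgG RIP. Herpud1, a gene of the endoplasmic reticulum stress response, had 0.437, 0 and 0 RPKM in HuR RIP and 10.8, 5.36 and 1.56 in IgG RIP, and here IgG 3 was the lowest control. Wfdc21 and Ddt were listed at 0 in every HuR library, so they were kept through IgG RIP alone and had to differ. Wfdc21 had 8.23, 5.71 and 92.8 RPKM in IgG RIP, and Ddt had 31.7, 3.39 and 12.9.
Isoc1 and Ctsz owed most of their IgG mean to IgG 3, at 32.6 and 51.4 RPKM against at most 2.59 in IgG 1 and 2. Of the 16, IgG 3 was the highest IgG library in 11, and its part in the differences was not tested. In 7 of the 16, all 3 IgG libraries lay above the Input mean.

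**Figure D2:**
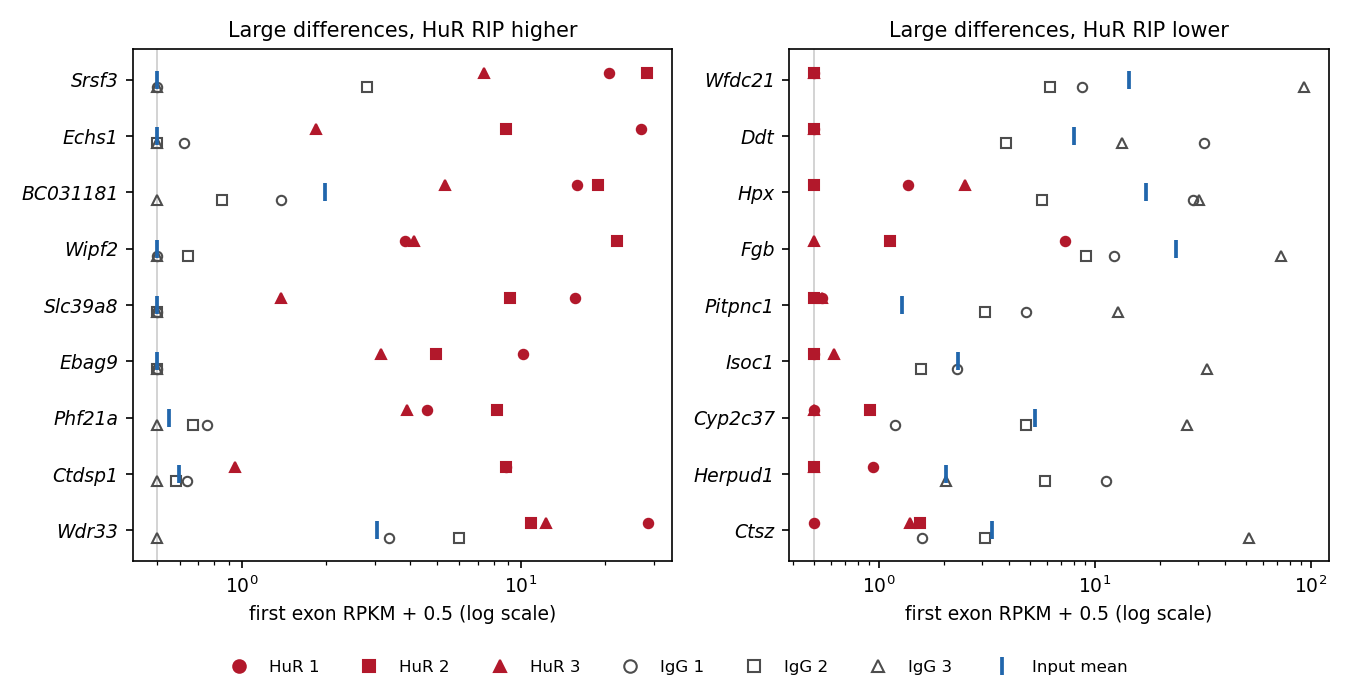
First exon RPKM + 0.5 (log scale) in each library for 9 of the 10 largest differences on either side, with filled red symbols for HuR RIP, open grey symbols for IgG RIP and blue bars for the Input mean; the grey line marks 0 RPKM. Points of the groups do not overlap within a gene, and IgG 3 (open triangles) lies at 0 in all 9 genes on the left and highest in most on the right.

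Among first exons that overlap no other gene, the 10 most abundant were mainly of hepatocyte and blood genes. Groups did not overlap in 3 of the 10, with Cyp3a11 higher and Hbb-bs and Hbb-bt lower in HuR RIP. The non-overlapping shares were 10.2% higher and 6.15% lower over the 2373, and 19.9% and 3.53% over all exons tested. Larger RPKM values stood where another gene's exon overlaps, as in Ccdc107 (7543 to 15281 RPKM in HuR RIP, 3110 to 24949 in IgG RIP) and Rpl6 (568 to 3060 and 1315 to 8055). Alb, at chr5:90460897-90461013 with 79 coding bases of 117, had 130, 229 and 70.2 RPKM in HuR RIP and 472, 107 and 673 in IgG RIP. Its Input mean was 770 RPKM. The groups overlapped, with a log2 fold change of -1.34 (SE 1.05, limma adjusted p = 0.526). Zfp654, a zinc finger gene, came next with 44.2, 106 and 28.0 RPKM in HuR RIP and 114, 45 and 263 in IgG RIP.
Sod1, the cytosolic superoxide dismutase, had 27.0, 81.8 and 24.1 RPKM in HuR RIP and 79.8, 21.6 and 51.1 in IgG RIP. Cyp3a11, the major drug-metabolizing P450 of mouse liver, had 63.3, 32.8 and 45.8 RPKM in HuR RIP and 29.7, 1.45 and 20.6 in IgG RIP, and did not overlap. Mup14, Mup18 and Mup20, major urinary proteins with near-identical relatives, overlapped between groups, and reads among such paralogs may have been split.

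The beta-globin first exons were lower in each HuR library than in each IgG library. Hbb-bs had 26.6, 9.95 and 6.41 RPKM in HuR RIP and 99.2, 36.6 and 70.6 in IgG RIP. Hbb-bt had 35.0, 17.9 and 8.99 RPKM in HuR RIP and 138, 45.2 and 90.3 in IgG RIP. The alpha-globin first exons overlapped, with Hba-a1 at 17.8, 2.22 and 5.87 RPKM under HuR against 15.0, 6.96 and 0 under IgG. Summed over 9 first exons of blood cell markers, levels ranged from 34.5 to 114 RPKM in HuR RIP and from 107 to 289 in IgG RIP. The Input mean of this sum was 64.6 RPKM. The median log2 fold change of blood cell markers was -0.90 over the 4 first exons kept. Over their 6 terminal exons tested it was 1.65, in the opposite direction. The first minus terminal contrast was below 0 in 4 of 4 of these genes, with a median of -2.52, and 0 were called by limma. The first exons alone therefore do not give the level of blood cell RNA. The part of blood content in these values was not tested. Were blood content to differ between such bulk lysates, fewer blood cells and less RNA per cell could not be told apart.

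Of 13 genes followed whatever their values, 7 were among the 2373. Apob had 14.8, 47.4 and 2.85 RPKM in HuR RIP and 26.9, 7.05 and 48.0 in IgG RIP, and the groups overlapped. Apoa1, Ttr and Serpina1a also overlapped, with log2 fold changes of -0.84, -1.43 and 2.27, and the Ttr first exon overlaps an exon of another gene. Mcl1, an anti-apoptotic gene and known HuR target, was near the floor with 0, 0.678 and 0.0265 RPKM in HuR RIP and 0.0450, 0.0804 and 0 in IgG RIP. Malat1, a nuclear long non-coding RNA whose first row spans 6983 bases and overlaps another gene, had 307, 460 and 129 RPKM in HuR RIP and 85.3, 16.5 and 27.3 in IgG RIP. Its groups did not overlap, at a log2 fold change of 2.94 (SE 1.04).
The first exons of Actb, Cycs, Elavl1, Mat2a, Ndufb6 and Uqcrb were above 0 in at most 1 library.

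The second comparison set the first exon of each gene against its terminal exon in the same library. Scaling between libraries then cancels except through the 0.5 added to each RPKM. This addition weighs at low levels, as the 2373 first exons had library medians of 0.0177 to 0.195 RPKM. With 0.1 or 1 added, the median contrast given next was -1.66 or -0.66. Over 1653 genes with both exons above 0 in at least 3 RIP libraries, the median contrast (HuR minus IgG of the log2 first minus terminal difference) was -0.95, and 1320 genes (79.9%) were below 0. In this fit 0 genes were called in either direction, while at an unadjusted p under 0.05, 421 were lower (percent called 25.5) and 20 higher (percent called 1.21). In 498 genes (30.1%) every HuR difference lay below every IgG difference, and in 32 (1.94%) above.
A filter that does not use the RIP values gave calls. Among 433 genes with both exons at 0.5 RPKM or more in the Input mean, 103 were lower in HuR RIP at an adjusted p under 0.05 (23.8%) and 0 higher, with a median contrast of -2.50. At an unadjusted p under 0.05 limma gave 206 lower (47.6%) and 1 higher (0.231%), and groups did not overlap in 201 lower (46.4%) and 3 higher (0.693%). Of the 433 first exons, 273 are among the 2373, and 64 of the 103 called genes are. The count depended on which library was left out, with 0 called without HuR 1, 9 without HuR 3 and 3 without IgG 2, against 131 without HuR 2, 93 without IgG 1 and 74 without IgG 3. The median stayed between -2.84 and -2.31 when any single library was left out.

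The direction was the same in each library. The median first minus terminal difference over the 433 genes was -3.61, -2.99 and -4.12 log2 units in HuR RIP. It was -1.28, -0.68 and -0.43 in IgG RIP, and -0.28 for the Input mean. The first exon was below the terminal exon in 84.1% to 95.4% of genes in HuR RIP and in 56.8% to 70.2% in IgG RIP. Most of the contrast lay at the terminal exon. Taken alone, the median contrast of the 433 terminal exons was 2.25 and 412 (95.2%) were above 0, whereas that of the first exons was -0.11 and 166 (38.3%) were above 0. In 252 of the genes the terminal exon was higher in all 3 HuR libraries than in all 3 IgG libraries, where the share over all terminal exons tested was 35.0%. The first exon was higher in 9 and lower in 33, where the shares over the 2373 were 10.2% and 6.15%. All of these are among the 273, because the other 160 were above 0 in too few libraries for groups to differ without overlap. Levels of the 433 first exons were low, with medians of 0, 0.232 and 0.0297 RPKM in HuR RIP. The medians were 1.37, 0.472 and 0 in IgG RIP, and 1.45 for the Input mean. Of the 103 called genes, the first exon was lower in all 3 HuR libraries in 21 and higher in 0, and the median contrasts were -1.11 at the first exon and 3.28 at the terminal exon.
By terminal length, the 1653 genes had median contrasts of -1.59 under 500 bases, -0.96 from 500 to under 3000 and -0.64 at 3000 or more, so the contrast was nearer 0 for longer terminal exons. The 433 genes did not show this order, with medians of -2.39 under 500 bases (177 genes), -2.65 from 500 to under 3000 (229 genes) and -2.58 at 3000 or more (27 genes).

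A further comparison replaced the terminal exon by the internal exons of the same gene, as an alternative added after the values had been seen. The median contrast was then -0.16 over both 1497 genes filtered on RIP values and 485 filtered on Input. Of the 1497, 1 was called lower by limma (0.0668%) and 0 higher, with 85 lower (5.68%) and 42 higher (2.81%) at an unadjusted p under 0.05. Groups did not overlap in 142 lower (9.49%) and 82 higher (5.48%). Of the 485, 0 were called by limma, with 26 lower (5.36%) and 10 higher (2.06%) at an unadjusted p under 0.05. Groups did not overlap in 42 lower (8.66%) and 23 higher (4.74%). Per library, the median first minus internal difference of the 485 genes was -0.65, -1.14 and -0.68 in HuR RIP and -1.05, -0.66 and -0.31 in IgG RIP, and the groups overlapped.

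**Figure D3:**
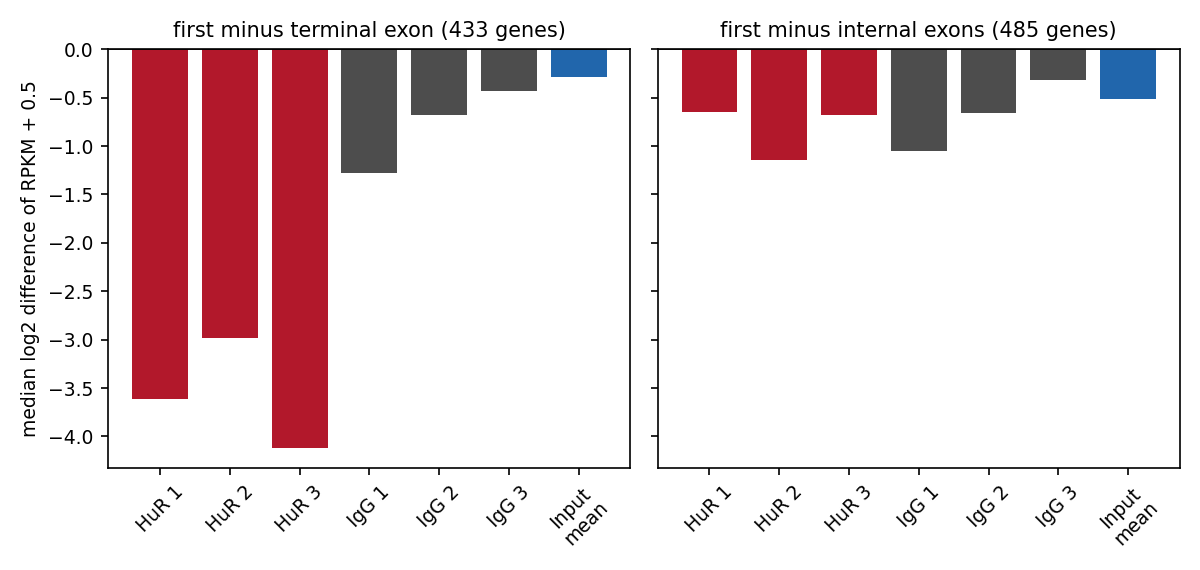
Median over genes of the log2 difference between first and terminal exon (left, 433 genes) and between first and internal exons (right, 485 genes) in each RIP library and the Input mean, for genes kept by Input level. On the left the HuR bars reach -2.99 to -4.12 and the IgG bars -0.43 to -1.28, while on the right the groups overlap.

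The genes with the largest imbalance show the pattern in single exons, and adjusted p-values given for them are from limma on the 433 genes. The Alb first exon was within the IgG range in HuR 1 and 2, as given above, but its terminal exon at chr5:90476460-90476602 had 5341, 1313 and 6057 RPKM in HuR RIP against 75.4, 17.8 and 236 in IgG RIP. Its Input mean was 212 RPKM. The first minus terminal contrast was -7.00 (SE 1.32, adjusted p = 0.0163). In IgG RIP and Input the first exon of Alb was the higher of both, and in HuR RIP the terminal exon was.

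Gc had a first exon with 1.11, 52.5 and 7.96 RPKM in HuR RIP and 76.1, 10.1 and 58.2 in IgG RIP. Its terminal exon had 797, 234 and 732 RPKM against 22.3, 13.3 and 6.44, and the contrast was -7.33 (SE 1.67, adjusted p = 0.0205). HuR 2 was the HuR library with the smallest gap between the ends, in Gc as in Alb and Fabp1.
The Fabp1 first exon had 1.8, 26.8 and 1.11 RPKM in HuR RIP and 28.3, 0.225 and 22.8 in IgG RIP, and the terminal exon 252, 93.7 and 494 against 1.05, 0 and 30.6. Its contrast was -7.05 (SE 1.72, adjusted p = 0.0206), and IgG 2 was low at both ends. Hpx differed at both ends, since its first exon was lower in HuR RIP and its terminal exon was at 106, 35.2 and 191 RPKM against 19.2, 19.2 and 27.6, with a contrast of -5.85 (SE 1.2, adjusted p = 0.0180).

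Fgb and Cyp2c37 likewise had contrasts of -5.88 and -7.64 (adjusted p = 0.0206 and 0.0178). In Fgb the first minus internal contrast was -4.06, and in Alb it was -0.65. Insig1, whose terminal exon holds the run of T shown above, had a first exon with 0.0868, 0 and 0 RPKM in HuR RIP and 1.17, 0.0866 and 16.3 in IgG RIP, while its terminal exon had 68.4, 71.1 and 29.3 against 26.1, 2.31 and 3.97. The Insig1 contrast was -5.19 (SE 1.46, adjusted p = 0.0267).
Clec2d, a lectin-like receptor ligand, had a contrast of -5.95 (adjusted p = 0.0344), and its first exon was at 68.1 RPKM in IgG 3 against 8.06 and 1.13 in IgG 1 and 2. Wfdc21 was also called, and its first exon was listed at 0 in HuR RIP. Of the 9 genes named here as called (Alb, Gc, Fabp1, Hpx, Fgb, Cyp2c37, Insig1, Clec2d and Wfdc21), each lost its call without HuR 1 and without IgG 2, and kept its direction. Hagh had a first exon listed at 0 in HuR RIP too, but its Input mean was below 0.5 RPKM, so it was outside the 433.

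**Figure D4:**
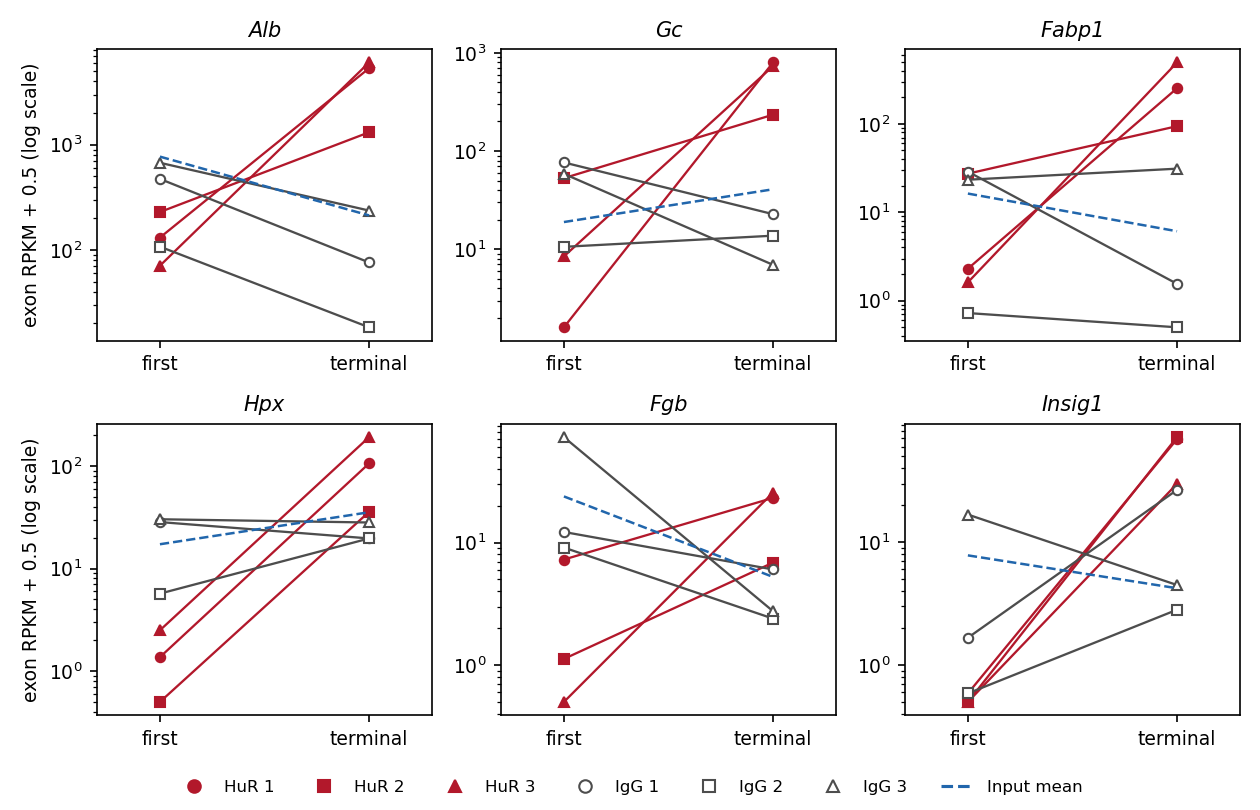
RPKM + 0.5 (log scale) of the first and terminal exon of 6 genes, with each line joining both exons in 1 library (filled red, HuR RIP; open grey, IgG RIP; dashed blue, Input mean). Lines of HuR libraries rise to the terminal exon in each gene, for Alb from 70.2 to 6057 RPKM in HuR 3, whereas for Alb each IgG line falls.

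The opposite pattern, a first exon favoured in HuR RIP, was met by 7 genes with non-overlapping differences and 5 RPKM or more, and 0 were called by limma. The length, overlap and name conditions were as above. Under the same conditions 155 genes had the first exon disfavoured in HuR RIP. Over all 1653 genes the non-overlapping shares were 1.94% higher and 30.1% lower. In Phf21a the terminal exon stayed with 0.0698, 0.0777 and 0.208 RPKM in HuR RIP and 0.213, 0.0421 and 0.756 in IgG RIP. The contrast was 3.41 (SE 0.90, limma adjusted p = 0.0833 over 1653 genes). Wipf2, Stat2, Wdr33, BC031181, Slc39a8 and Ebag9 were the others, with Stat2, an interferon-signalling transcription factor, at 14.2, 20.8 and 6.23 RPKM in its first exon in HuR RIP and 2.78, 2.99 and 0 in IgG RIP. Stat2 and Slc39a8 first exons belong to transcripts annotated as retaining an intron.

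Against the Input mean, 422 first exons lay above it in all 3 HuR libraries, where the share over all exons tested was 32.4%, which makes 17.8% of the 2373. In all 3 IgG libraries 213 lay above it (8.98%, against 7.71% of all exons). Below the Input mean were 475 in all 3 HuR libraries (20.0%, against 12%) and 368 in all 3 IgG libraries (15.5%, against 17.4%). Terminal exons lay above Input in all 3 HuR libraries in 54.9% of cases. The median log2 ratio of first exons to Input was 0.00, 0.03 and 0.00 over the HuR libraries and 0.14, -0.02 and -0.02 over the IgG libraries. These are descriptions, as the Input has no spread.

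Gene groups were counted over their first exons, with 0 limma calls in each group. The background for non-overlapping groups is the 19.9% higher and 3.53% lower given above. Medians include first exons that overlap another gene. Without these, the sign was the opposite for splicing factors (-0.11), translation factors (0.04) and endoplasmic reticulum and secretory genes (-0.28). The median was then 0.25 for plasma proteins and -0.51 for complement and coagulation genes. The other groups described here kept their sign. At the terminal exons tested in each of these groups, the median log2 fold change was above 0. It was 2.34 for cytochrome P450 enzymes, 2.08 for conjugation enzymes, 2.39 for fatty acid oxidation and 0.78 for cytosolic ribosomal proteins. Over all terminal exons it was 0.72. First-exon medians therefore do not stand for the whole mRNA. Secreted plasma proteins and apolipoproteins had 34 of 51 first exons among the 2373, a median log2 fold change of 0.08, 1 non-overlapping higher (Apoe) and 3 lower (Apoc4, Hpx and Trf). Transferrin (Trf), whose first exon overlaps another gene, had 2.72, 3.34 and 4.06 RPKM in HuR RIP and 28.1, 5.07 and 12.9 in IgG RIP. Complement and coagulation genes had 13 of 42, a median of -0.15, C3 higher and Fgb and Mbl2 lower. C3, the central complement component, had 26.6, 23.9 and 4.0 RPKM in HuR RIP and 3.14, 2.07 and 0.958 in IgG RIP, for a log2 fold change of 2.59 (SE 1.13, limma adjusted p = 0.479). Mbl2, a mannose-binding lectin, was listed at 0 in HuR RIP and had 5.19, 1.77 and 32.6 RPKM in IgG RIP. It was kept through IgG RIP alone and had to differ.

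Cytochrome P450 enzymes had 20 of 44 first exons among the 2373 and a median of -0.54, with Cyp3a11 higher and Cyp2u1, Cyp2b10, Cyp2d10, Cyp2d40 and Cyp2c37 lower. Cyp2b10 and Cyp2d40 were listed at 0 in every HuR library, so they were kept through IgG RIP alone and had to differ. Cyp2b10 had only 0.267, 0.0795 and 0.0735 RPKM in IgG RIP. The Cyp2d members have close paralogs, so their values are uncertain. Conjugation enzymes, which attach glucuronate and other groups to xenobiotics, had 11 of 35 and a median of -0.45, with Ugt1a1, Ugt2b34 and Ugt2b5 lower. Ugt1a1, the bilirubin glucuronosyltransferase, overlaps other genes of its locus and had 0.144, 0 and 0 RPKM in HuR RIP and 2.73, 0.555 and 2.18 in IgG RIP.
Fatty acid oxidation and ketogenesis had the highest median of the groups, 1.13 over 11 of 32, with Echs1, Acox2 and Eci2 higher and 0 lower. Acox2 rested on HuR 1, at 6.57 RPKM against 0.357 and 0.0698 in HuR 2 and 3. Bdh1, the ketone body dehydrogenase, had 14.4, 21.4 and 0 RPKM in HuR RIP and 0.271, 0 and 0 in IgG RIP, and the groups overlapped at 0.

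Cytosolic ribosomal proteins, whose mRNAs typically start with a pyrimidine tract, had 23 of 79 and a median of -0.23, with 0 higher and 4 lower, among them Rpl14 and Rpl23a. The first exon of Rpl23a overlaps an exon of another gene. Translation factors had 12 of 34, a median of -0.04 and Pabpc1 higher. Pabpc1, the cytoplasmic poly(A)-binding protein, had 14.9, 24.5 and 17.0 RPKM in HuR RIP and 8.09, 2.77 and 1.16 in IgG RIP, and its HuR libraries were even at 18.8 ± 5.04 RPKM (SD, n = 3).
AU-rich element and 3′ untranslated region binding proteins had 11 of 36, a median of 0.32 and 2 higher, among them Pum2, a translational repressor with low levels of 0.585, 0.148 and 0.820 RPKM under HuR and 0.0810, 0 and 0 under IgG. Splicing factors had 12 of 46, a median of 0.07, Srsf3 higher and Srsf6 and Hnrnpa2b1 lower. Published HuR target mRNAs had 12 of 47, a median of 0.14 and 0 non-overlapping in either direction.

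Endoplasmic reticulum and secretory genes had 14 of 33 and a median of 0.00, with the chaperone Hsp90b1 higher and calreticulin (Calr) lower. Hsp90b1 had 48.1, 72.8 and 25.8 RPKM in HuR RIP and 20.0, 6.47 and 3.08 in IgG RIP, in a first exon that overlaps another gene. Urea cycle and amino acid genes had 21 of 39 and a median of -0.17, with 1 higher and Prodh lower. Hepatocyte transcription factors had 11 of 39, a median of 0.56, 1 higher and Nr1i3, the nuclear receptor CAR, lower. Calr, Prodh and Nr1i3 were listed at 0 in every HuR library, so they were kept through IgG RIP alone and had to differ. In the respiratory chain Uqcrh was lower, in glucose metabolism Slc37a4 was higher, and among short-lived mRNAs Txnip and Pim3 were lower. Medians for cholesterol synthesis (15 of 41), glucose metabolism (10 of 25), the respiratory chain (20 of 70) and short-lived mRNAs (8 of 27) were -0.01, 0.16, -0.45 and -0.13.

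Among the 433, calls of the first minus terminal contrast were counted in the larger groups. Of 39 plasma protein genes 9 were called lower, of 18 complement and coagulation genes 7, of 23 cytochrome P450 genes 7, of 10 conjugation genes 5 and of 20 urea cycle and amino acid genes 4. Their median contrasts were -1.81, -3.05, -2.06, -3.51 and -2.80, beside -2.50 over the 433 genes and 23.8% called.

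First exons differed from terminal exons in composition. The 2290 with a sequence had a median GC content of 65.1% and T content of 17.8%, against 45.7% and 27.9% for 2270 terminal exons of the same genes. Other first exons (12069) had 61.3% GC. Motifs of U-rich and AU-rich binding sites were searched on the transcribed strand only, with overlapping matches counted in each. To compare like lengths, exons of 200 to 500 bases were taken. TTTTTTT was in 3.03% of the 924 first exons among the 2373, in 2.75% of 4939 other first exons and in 11.1% of 325 terminal exons. ATTTA was in 4.55%, 7.25% and 29.2%, TTTATTT in 1.41%, 1.6% and 6.77%, and TATTTAT in 0.325%, 0.688% and 4.92%.

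Among first exons of any length, those higher in all HuR libraries had a lower GC content than those lower in all, with medians of 56.5% (228 exons) and 67.7% (138 exons) against 65.5% in the remaining 1924. TTTTTTT was in 27.2%, 5.07% and 12% of them, and ATTTA in 36.0%, 7.25% and 18.4%. The higher exons were also longer, with medians of 539 and 371 bases. At 200 to 500 bases the higher exons held TTTTTTT in 4 of 75 (5.33%) and the lower in 2 of 59 (3.39%), a smaller gap than at any length. ATTTA was in 8 of 75 and 0 of 59, and GC content was 65.6% and 67.8%. A 5′ terminal oligopyrimidine start, taken as C followed by 4 pyrimidines at the annotated first base, was in 2.66% of the 2290, in 2.44% of other first exons, and in 2 of the 23 ribosomal protein first exons. A match here is a run of letters and not a shown binding site.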

How the data were processed

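Bowtie2, featureCounts and mm10 are named in the submitters' processing notes, without versions. The deposited values are RPKM per exon and library, a mean Input RPKM, per-library log2 fold columns by the authors and a deposited p-value and q-value, whose lowest q-value was 0.110. The decimal mark was missing from every number from 1 upward. It was restored from the authors' log2 fold columns, log2((RPKM + 1)/(Input + 1)), for all 138826 distinct lines of values, 1 of which was ambiguous. HuR fold columns 2 and 3 match the RPKM columns numbered 3 and 2, and libraries are numbered here by the RPKM columns, so HuR 2 and HuR 3 would be exchanged if the fold columns were right. Values of identical rows were summed, because reads were split between rows. From the RPKM steps, 99.8% to 100.0% of unshared exons held whole reads (within 0.05 read).

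limma 3.58.1 (R 4.3.3, trend and robust) was run on log2(RPKM + 0.5) for exons above 0 in at least 3 of 6 RIP libraries, two-sided, with Benjamini-Hochberg adjustment over all exons or genes tested and a threshold of 0.05. The fit was tested on simulated data. Exons and classes were matched to GENCODE M21. Gene names on several chromosomes or strands (7) were left out.

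Named first exons were the 10 largest differences in each direction (non-overlapping groups, 5 RPKM or more, 100 bases or more, no overlap with another gene), the 10 most abundant, the 10 largest first minus terminal contrasts, up to 4 of each gene list by p, and 13 fixed genes. Predicted (Gm number), Rik, pseudogene, ribosomal repeat and small RNA gene names were left out of the largest differences, the largest contrasts and the most abundant. Overlapping genes and examples outside these rules were chosen after their values were seen. Some genes and sequences that these rules pick are not reported here. Members and lists were chosen with earlier results of these data known. Reads are not independent molecules, so depth covers counting error only. Alternatives covered pseudocount, filter, scaling, moderation, replicate block, left-out libraries and exon class.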

Additional observations from a re-analysis of the deposited data

How the results depend on the processing

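Under 22 alternatives, 0 first exons were called in either direction. The median of first exons (0.05) became 0.42 and 0.38 with filters of 0.5 and 1 RPKM, and turned to -0.29 with median centring, -0.25 with TMM-like scaling and -0.28 with quantile normalization. Leaving out 1 library gave -0.01 to 0.13, the lowest without HuR 2. For the first minus terminal contrast over 1653 genes (0 lower, median -0.95), genes called lower numbered 15 with a pseudocount of 0.1 (median -1.66), 41 and 38 with filters of 0.5 and 1 RPKM (medians -1.84 and -2.29), 103 when kept by Input (median -2.50), 1 with quantile normalization, and 69 lower and 2 higher without trend and robust moderation. Leaving out 1 library gave 0 to 19 (19 without HuR 2) and medians of -1.13 to -0.84. The median was -0.66 with a pseudocount of 1 and -0.44 with no filter. With internal exons as reference, 1 was called and the median was -0.16. The replicate block gave 4 lower calls. Deviations of same-numbered HuR and IgG libraries from their group means had correlations near 0, at 0.0121, 0.0149 and 0.0237. Those of differently numbered libraries ranged from -0.0378 to 0.0199. The labels do not say that a number marks a shared liver. Columns of the same number share an M or F suffix.

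The alternatives for the 433 genes kept by Input were chosen after seeing the data. The 103 calls became 59 with a pseudocount of 0.1 (median -3.07), 57 of 222 at 1 RPKM of Input, 3 without both HuR 3 and IgG 1, and 0 with internal exons as reference (median -0.16). Leaving out 1 library gave 0 to 131 (medians -2.84 to -2.31), and the replicate block gave 122. The cause of these changes was not tested. Signs of first-exon log2 fold changes turned with a left-out library for Sod1 (range -0.79 to 0.18, with 0.08 without HuR 3 and 0.18 without IgG 1), Apob (-1.59 to 0.33), Ttr (-2.74 to 0.68), Mcl1 (-0.076 to 0.54), Hba-a1 (-0.65 to 1.82) and Hba-a2 (-0.97 to 1.29). Without both HuR 3 and IgG 1, Sod1, Apob and Ttr were at 0.50, 0.50 and 1.46. Centring gave -0.013 for Mcl1, and quantile normalization gave -0.59 for Hba-a2. Depth limits the first exons, since their median was near 1 read per library.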

Other observations

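The first exons of Alb and Zfp654 kept a similar ratio across libraries. They had the highest levels under the length, overlap and name conditions given above. The Alb RPKM was 2.95, 2.15 and 2.51 times that of Zfp654 in HuR 1, 2 and 3, 4.13, 2.37 and 2.56 times in IgG 1, 2 and 3, and 2.39 times in the Input mean. This pair was chosen after the values were seen, and no test was made.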
